A study of Homo sapiens with 4 samples.

Results

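The genes described here are 10 secreted signals of inflammation and tissue injury: the neutrophil chemokine IL8 (now named CXCL8), the related chemokines CXCL1, CXCL2 and CXCL3, the monocyte chemokine CCL2, the cytokines IL1B, IL6, LIF and TSLP, and the pentraxin PTX3. They were picked by symbol, and each of the 10 was found among the 23228 gene symbols of the files. They were picked with their levels in these libraries known, so their values below are a description without a test. Libraries were made from ribosome-depleted total RNA of A673, a long-established line from a Ewing sarcoma, which the labels assign to muscle. The cells were harvested 48 h after transfection with SMPD1 siRNA (library siSMPD1), scrambled siRNA as its control (control_SMPD1), GPR64 siRNA (siGPR64) or scrambled siRNA as the control of that pair (control_GPR64), paired as the sample titles name them. Every cell received the same lipid transfection reagent and was grown with insulin and beta-mercaptoethanol. SMPD1 encodes acid sphingomyelinase, and GPR64 (ADGRG2) an adhesion G protein-coupled receptor. Each group is 1 library of 1 cell line, so no difference below has a replicate check, and each compares 2 libraries, not conditions.

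Cytokine and chemokine genes of this kind are kept low in resting cells and are switched on within hours by danger signals. NF-kB is the central activator, together with AP-1 and C/EBP factors at the same promoters. Their mRNAs are short-lived because AU-rich sequences near the end of the message recruit decay factors. IL8 and CXCL1 to CXCL3 act on the receptors CXCR1 and CXCR2 and draw neutrophils, CCL2 acts on CCR2 and draws monocytes, and IL1B acts on IL1R1 with its partner IL1RAP. IL6 and LIF share the signalling chain IL6ST, TSLP acts on CRLF2 with IL7R, and PTX3 is a soluble pattern recognition protein that binds microbes and complement factors.

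Upstream sequences are shown because NF-kB-type letters recur in them. RefSeq (GRCh38.p14) gave windows for 8 of the 10 genes, with 3 transcript starts for TSLP. Only the 250 bases before the start were searched. The submitters' processing notes name hg19, so the windows were found by symbol and not by position. For IL8 and PTX3, the members with the largest ratios in the SMPD1 pair, the whole window is printed, with matches in capitals. The IL8 window lies at chr4:73740319-73740568 on the plus strand, and that of PTX3 at chr3:157436600-157436849 on the plus strand.
IL8: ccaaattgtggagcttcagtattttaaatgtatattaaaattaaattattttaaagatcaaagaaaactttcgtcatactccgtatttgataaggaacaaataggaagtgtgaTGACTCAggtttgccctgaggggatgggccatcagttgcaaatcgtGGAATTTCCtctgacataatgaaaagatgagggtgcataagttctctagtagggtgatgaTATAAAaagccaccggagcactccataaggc
PTX3: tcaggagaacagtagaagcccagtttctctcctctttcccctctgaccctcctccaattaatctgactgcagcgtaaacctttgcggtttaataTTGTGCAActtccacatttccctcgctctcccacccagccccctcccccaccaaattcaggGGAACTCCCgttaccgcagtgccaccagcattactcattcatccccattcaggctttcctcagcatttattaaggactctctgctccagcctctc

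The capitals mark 4 motifs, each searched on both strands: GGNNNTTCC as an NF-kB-like core, TGANTCA as an AP-1-like one, TTGCNNAA as a C/EBP-like one, and TATAAA. The letters were chosen after the windows had been read, so the counts carry no weight as a test. The NF-kB-like core was present upstream of 7 of the 8 genes, all but IL1B, and in 17.1% of 35116 RefSeq windows of the same length. IL8 had the AP-1-like letters 137 bases before its start (6.57% of all windows hold them), the NF-kB-like core at 91 bases and TATAAA at 31 bases (10.7% of all windows). PTX3 had the NF-kB-like core at 95 bases, on the opposite strand, and the C/EBP-like letters at 156 bases (9.05% of all windows). IL1B had the C/EBP-like letters alone. A match is a run of letters, and binding was not measured. The cores of the chemokine genes, IL6 and PTX3 are compared here with 10 bases on either side, each read in its gene's direction. They lie at chr4:73740468-73740496 (IL8, plus strand), chr4:73869305-73869333 (CXCL1, plus), chr4:74099254-74099282 (CXCL2, minus), chr4:74038749-74038777 (CXCL3, minus), chr7:22727118-22727146 (IL6, plus) and chr3:157436745-157436773 (PTX3, plus).
IL8: tgcaaatcgtGGAATTTCCtctgacataa
CXCL1: tggaactccgGGAATTTCCctggcccggg
CXCL2: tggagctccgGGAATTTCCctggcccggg
CXCL3: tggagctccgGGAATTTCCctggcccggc
IL6: atcaaatgtgGGATTTTCCcatgagtctc
PTX3: caaattcaggGGAACTCCCgttaccgcag

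The 4 chemokine genes carried the same 9 letters in this core. Over the 29 bases shown, CXCL1 and CXCL2 shared 28, CXCL2 and CXCL3 shared 28, and CXCL1 and CXCL3 shared 27. CXCL1 to CXCL3 had another match 53 bases before their starts. The windows upstream of TSLP starts 2 and 3 had 1 match each, and that of start 1 had none.

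**Figure D1:**
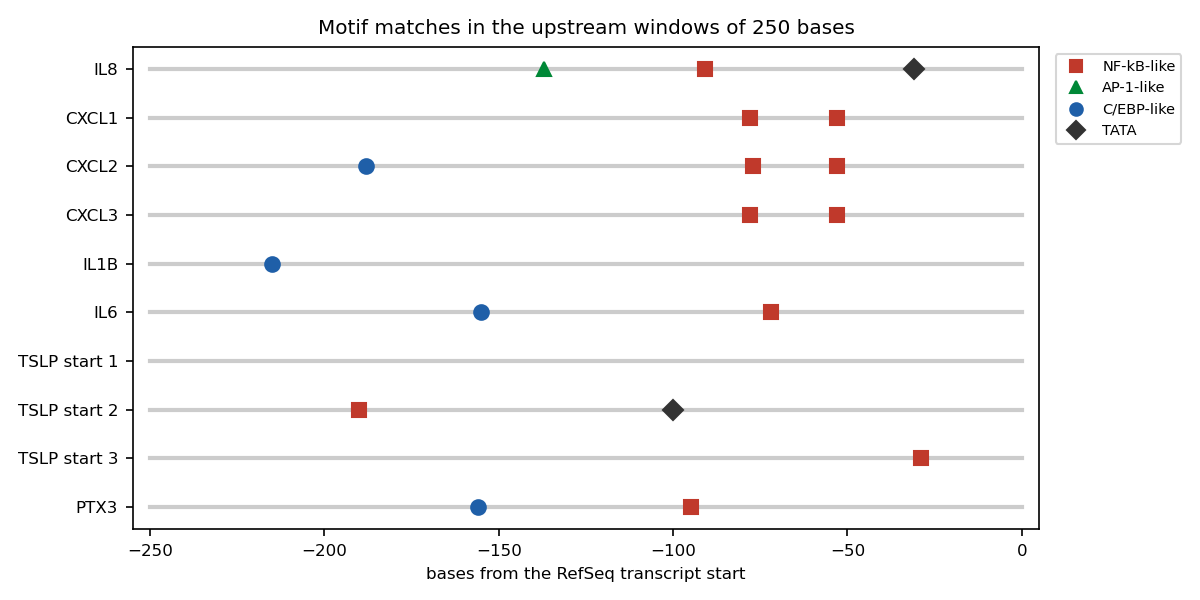
Matches of 4 motifs in the 250 bases before each RefSeq transcript start, placed by the match's left edge in bases from the start. NF-kB-like matches (squares) lie upstream of 7 of the 8 genes, and IL1B has a C/EBP-like match alone.

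Reads from the gene files summed to 18849264 in siSMPD1, 19614913 in control_SMPD1, 2534861 in siGPR64 and 2882854 in control_GPR64. Levels are CPM, a gene's reads as a share of its library with the usual CPM scale, adjusted by edgeR's TMM factors, and 3 reads, the limit that a count of 0 allows, stood at 0.159, 0.156, 1.18 and 1.03 CPM in the same libraries. Each targeted gene was lower in its own knockdown library than in the paired control, but both also differed elsewhere. SMPD1 stood at 91.7 CPM in siSMPD1 and 414 CPM in control_SMPD1, and GPR64 at 50.1 CPM in siGPR64 and 108.6 CPM in control_GPR64. SMPD1 was 4.38-fold higher in siGPR64 (231.9 CPM) than in control_GPR64 (52.8 CPM), and its level in control_GPR64 was below that in siSMPD1. GPR64 was 3.57-fold lower in control_GPR64 than in control_SMPD1 (387.7 CPM), so the controls are not interchangeable. The Ewing sarcoma genes NR0B1, NKX2-2 and STEAP1 stood at 70.1 CPM or more in every library, while CD99 was listed at 0. The files list reads that did not align uniquely apart from the genes, so this 0 does not show that CD99 is absent. Levels of the 11 listed were not all even. NR0B1 stood at 70.1 CPM in siSMPD1 and 73.7 CPM in control_SMPD1, but at 143.8 CPM in siGPR64 and 143.2 CPM in control_GPR64. CCK stood at 0.392 CPM in siGPR64 and 5.14 CPM in control_GPR64. STEAP2 was 2.02-fold lower in siGPR64 than in control_GPR64. MYOD1 and MYOG, which define skeletal muscle, had 0 reads in every library. Of the 10 listed muscle markers MYH3 alone reached 1 CPM, at 1.43, 2.03, 1.96 and 1.71 CPM in siSMPD1, control_SMPD1, siGPR64 and control_GPR64. Of 14 immune cell markers 1 was measured, with LYZ at 0 in each library and PTPRC, the pan-leukocyte marker, at 2, 3, 0 and 0 reads in siSMPD1, control_SMPD1, siGPR64 and control_GPR64. The list had 7, 7, 11 and 10 genes at 0 and summed to 13.8, 11.4, 7.83 and 3.77 CPM in that order. Most of each sum was CD68 (12.7, 10.2, 7.05 and 2.74 CPM), a lysosomal protein gene of macrophages and other cells. The sum was higher in each knockdown library than in its control, opposite to the 10 genes, and its part in the results was not tested. In bulk RNA, fewer cells with a transcript and less transcript per cell cannot be told apart.

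The 10 genes were rare transcripts in every library and were lower, as a sum, in both knockdown libraries. They summed to 77 reads or 4.08 CPM in siSMPD1, against 388 reads or 20.2 CPM in control_SMPD1. They summed to 9 reads or 3.53 CPM in siGPR64, against 57 reads or 19.5 CPM in control_GPR64. The sums of the 2 controls were close, but different genes made them up. PTX3 held 53.1% and IL8 21.9% of the reads in control_SMPD1, with TSLP at 9.54%. In control_GPR64 TSLP held 68.4%, PTX3 10.5% and IL8 5.26%. Without PTX3 and TSLP the 8 remaining genes summed to 2.28 CPM in siSMPD1 and 7.55 CPM in control_SMPD1, and to 2.74 CPM (7 reads) in siGPR64 and 4.11 CPM (12 reads) in control_GPR64.

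**Figure D2:**
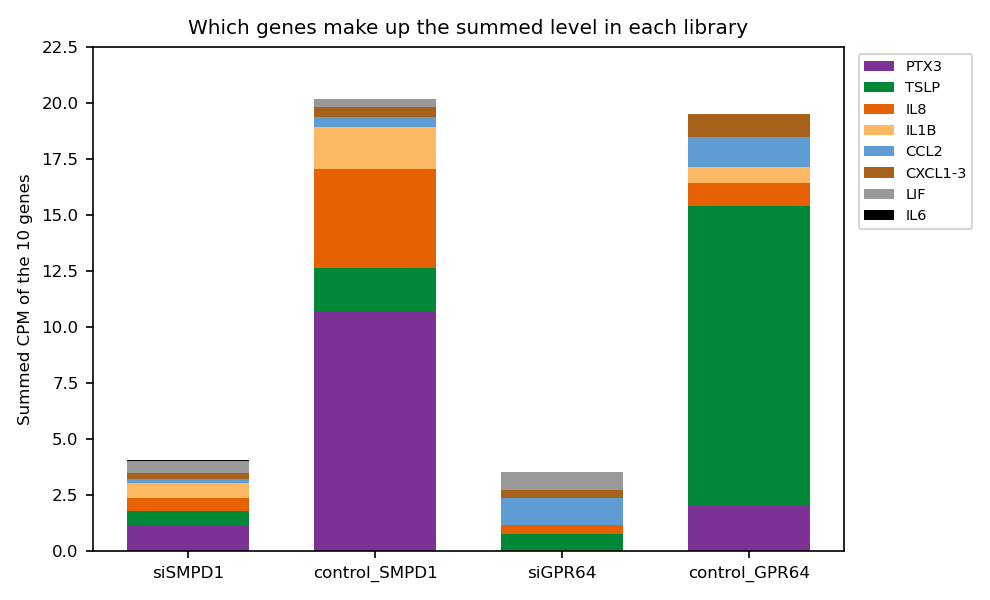
Summed CPM of the 10 genes in each library, as bars stacked by gene. The controls reach 20.2 and 19.5 CPM, mostly PTX3 in control_SMPD1 and mostly TSLP in control_GPR64, and the knockdown libraries reach 4.08 and 3.53 CPM.

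Differences were sorted by size. A gene was past the rule if it averaged at least 1 CPM over both libraries, differed by 2-fold or more, and had a 95% counting interval clear of equality. Such an interval is for counting error alone and says nothing of how cultures vary. In siSMPD1 against control_SMPD1, 4 of the 10 genes reached the level (IL8, IL1B, PTX3 and TSLP), and the same 4 were lower by the rule, as were 1.11% of the 12749 measured genes. No member was higher, against 2.49% of measured genes. The 4 reached 1 CPM on average through the control library, where they were high, and were chosen with these ratios known, so the count is no support for a group response. The remaining 6 had at most 10 reads in either library of the pair.

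IL8 was read 11 times in siSMPD1 and 85 times in control_SMPD1, or 0.583 CPM (95% Poisson interval 0.291 to 1.04) and 4.42 CPM (3.53 to 5.47). It was 7.31-fold lower in siSMPD1 (4.03 to 15.8). It was read 1 time in siGPR64 and 3 times in control_GPR64, or 0.392 CPM and 1.03 CPM. Both are at or under 3 reads, so no fold is given there. The control_SMPD1 library alone stood apart: the intervals of the other 3 libraries overlapped each other, and none reached 3.53 CPM. Set against control_GPR64, siSMPD1 had a log2 ratio of -0.77 (-2.74 to 1.66), within counting error.

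PTX3 had the largest ratio of the members in the SMPD1 pair. It was read 22 times in siSMPD1 and 206 times in control_SMPD1, or 1.17 CPM (0.731 to 1.77) and 10.7 CPM (9.31 to 12.3), and was 9.02-fold lower in siSMPD1 (5.91 to 15.0). It had 0 reads in siGPR64, against 6 reads or 2.06 CPM (0.754 to 4.47) in control_GPR64. With the 0 set to 3 reads it was at least 1.75-fold lower in siGPR64, under the 2-fold rule. The control_SMPD1 library was highest. The intervals of siSMPD1 and control_GPR64 overlapped, and siGPR64 could not be ranked against siSMPD1, since a count of 0 there allows up to 1.18 CPM. VEPH1, which spans PTX3 in the RefSeq annotation, had 0 reads in siSMPD1 and 4 in control_SMPD1, and 0 in both GPR64 libraries, so few reads lay on the other gene.

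IL1B encodes the inflammasome-processed form of interleukin 1. It had 12 reads in siSMPD1 and 36 in control_SMPD1, or 0.636 CPM (0.329 to 1.11) and 1.87 CPM (1.31 to 2.59). It was 2.87-fold lower in siSMPD1 (1.5 to 6.22). In siGPR64 it had 0 reads, against 2 in control_GPR64, and no fold is given. The interval of control_GPR64, 0.083 to 2.47 CPM, overlapped those of both SMPD1 libraries.

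TSLP, an epithelial cytokine that acts on dendritic cells, was the member with the highest level in the GPR64 pair. It had 2 reads in siGPR64 and 39 in control_GPR64, or 0.783 CPM (0.0949 to 2.83) and 13.4 CPM (9.5 to 18.3). It was 14.0-fold lower in siGPR64 (4.41 to 146). In the SMPD1 pair it had 12 reads in siSMPD1 and 37 in control_SMPD1, or 0.636 CPM and 1.93 CPM, and was 2.95-fold lower in siSMPD1 (1.54 to 6.38). The control_GPR64 library thus stood above the other 3, whose levels lay between 0.636 and 1.93 CPM. The level in siGPR64 was within counting error of control_SMPD1, with a log2 ratio of -1.25 (-4.40 to 0.66).

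**Figure D3:**
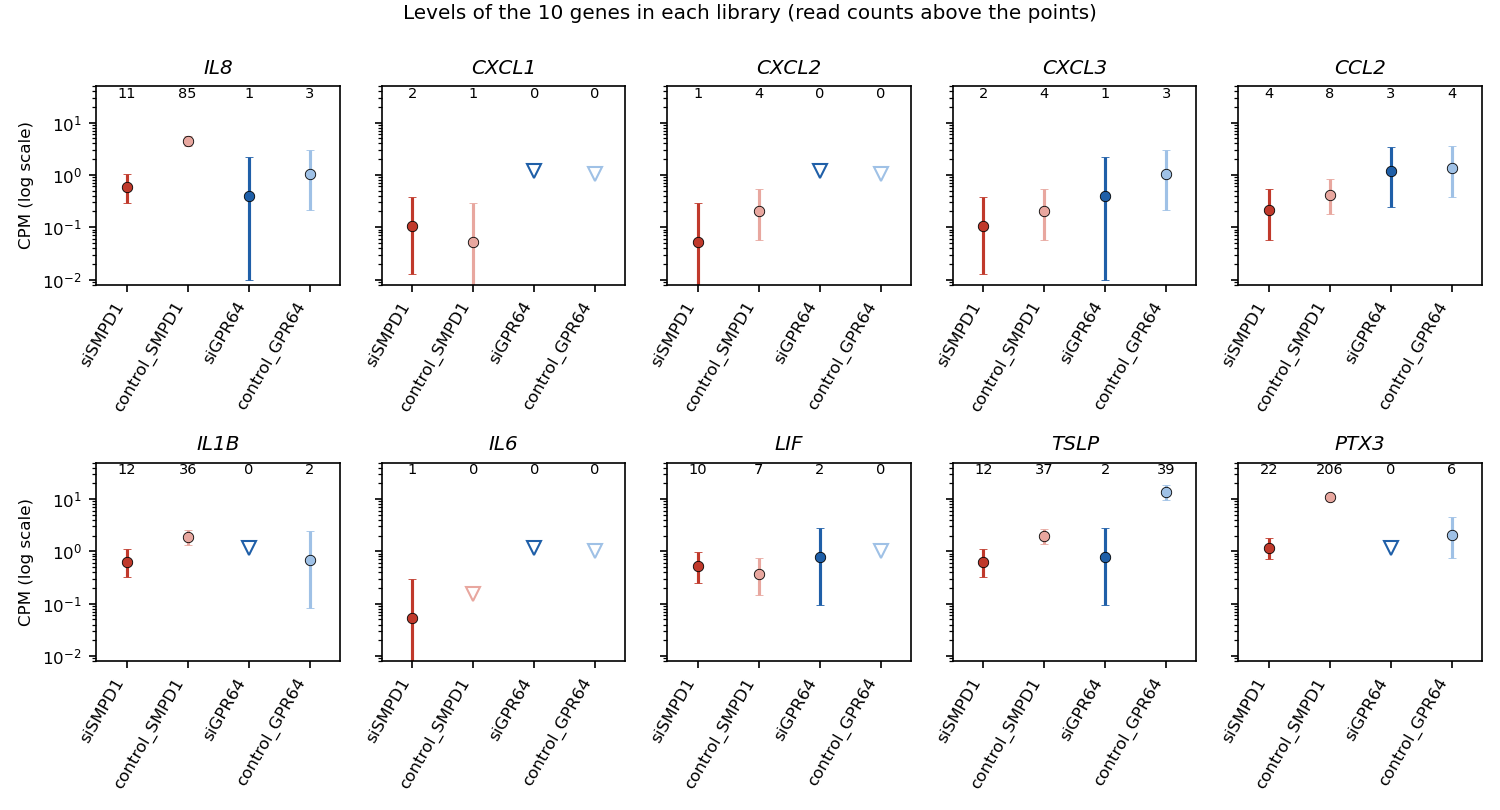
CPM on a log axis for each gene in each library, with exact 95% Poisson intervals as bars and read counts above. An open triangle marks a count of 0, drawn at the level of 3 reads. IL8 and PTX3 peak in control_SMPD1 at 4.42 and 10.7 CPM, and TSLP peaks in control_GPR64 at 13.4 CPM.

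In siGPR64 against control_GPR64, 3 of the 10 genes reached 1 CPM on average (CCL2, PTX3 and TSLP). By the fitted ratio PTX3 and TSLP were lower, as were 5.18% of the 12830 measured genes, and with the 0 of PTX3 set to 3 reads TSLP alone was. No member was higher, against 6.56% of measured genes. CCL2 had 3 reads in siGPR64 and 4 in control_GPR64, a log2 ratio of -0.19 (-2.99 to 2.34), and 4 reads in siSMPD1 and 8 in control_SMPD1, a log2 ratio of -0.89 (-3.16 to 0.93). Both intervals include equality, so a difference in CCL2 was not detectable at this depth.

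The growth-related chemokines CXCL1 to CXCL3 were near the limit of detection. CXCL1 had 2 reads in siSMPD1 and 1 in control_SMPD1, and 0 in both GPR64 libraries. CXCL2 had 1 read in siSMPD1 and 4 in control_SMPD1, a log2 ratio of -1.56 (-7.60 to 1.36), and 0 in both GPR64 libraries. CXCL3 had 2 reads in siSMPD1 and 4 in control_SMPD1, a log2 ratio of -0.83 (-4.44 to 1.83), and 1 read in siGPR64 and 3 in control_GPR64. Summed, the 3 genes had 5 reads in siSMPD1 and 9 in control_SMPD1, and 1 in siGPR64 and 3 in control_GPR64. Their mRNAs resemble each other: 5.73% of the stretches of 50 bases in CXCL1, 9.24% in CXCL2 and 5.26% in CXCL3 recur in one of the other transcripts (GENCODE release 29). The files list reads that did not align uniquely apart from the genes, so these counts are uncertain.

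IL6, the inducer of the hepatic acute phase, was read 1 time in siSMPD1 and 0 times in the other libraries. LIF, an IL6-family cytokine known for keeping mouse stem cells undifferentiated, had 10 reads in siSMPD1 and 7 in control_SMPD1, a log2 ratio of 0.51, within counting error. It had 2 reads in siGPR64 and 0 in control_GPR64. LIF, CXCL1 and IL6 were the members with more reads in siSMPD1 than in its control, by 3 reads for LIF and 1 read for the others.

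The 2 scrambled controls also differed in the members with most reads. In control_GPR64 against control_SMPD1, 4 members reached 1 CPM on average. IL8 was 4.17-fold lower (1.42 to 21.3) and PTX3 5.13-fold lower (2.36 to 14.4) in control_GPR64, while TSLP was 6.8-fold higher (4.31 to 11.2). IL1B had a log2 ratio of -1.39 (-4.55 to 0.51) and was short of the rule. Of 12798 measured genes, 8.33% were lower and 7.02% higher by the rule between these controls, more than in either knockdown pair. Both controls carry scrambled siRNA, and the labels name no other difference between them.

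Each knockdown library was also set against the control of the other pair, which it shares with the comparisons above. In siSMPD1 against control_GPR64, 2 of the 10 members reached 1 CPM on average, PTX3 and TSLP. TSLP was 19.7-fold lower (10.8 to 44.1), as were 8.02% of 12887 measured genes, and 10.5% were higher. CCL2, under that level and so not called, was 5.49-fold lower (1.2 to 34.7) on 4 reads in each library. IL1B stood at a log2 ratio of -0.10 (-2.27 to 3.09) and PTX3 at -0.79 (-2.16 to 0.77) there. In siGPR64 against control_SMPD1, IL8 was 10.2-fold lower (1.97 to 451) on 1 read. PTX3, at 0 reads, was at least 9.12-fold lower by the bound, with an interval reaching a log2 ratio of -2.88. Of 12812 measured genes, 5.25% were lower and 6.18% higher. PTX3, IL8 and IL1B in siSMPD1 were thus past the rule against control_SMPD1 only. IL8 and IL1B had 3 and 2 reads in control_GPR64 and averaged under 1 CPM against it, so they could not be called there. TSLP was lower in siSMPD1 than in either control. IL1B in siGPR64, at 0 reads, was at least 1.59-fold lower than in control_SMPD1 by the bound, with an interval reaching a log2 ratio of -0.30.

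**Figure D4:**
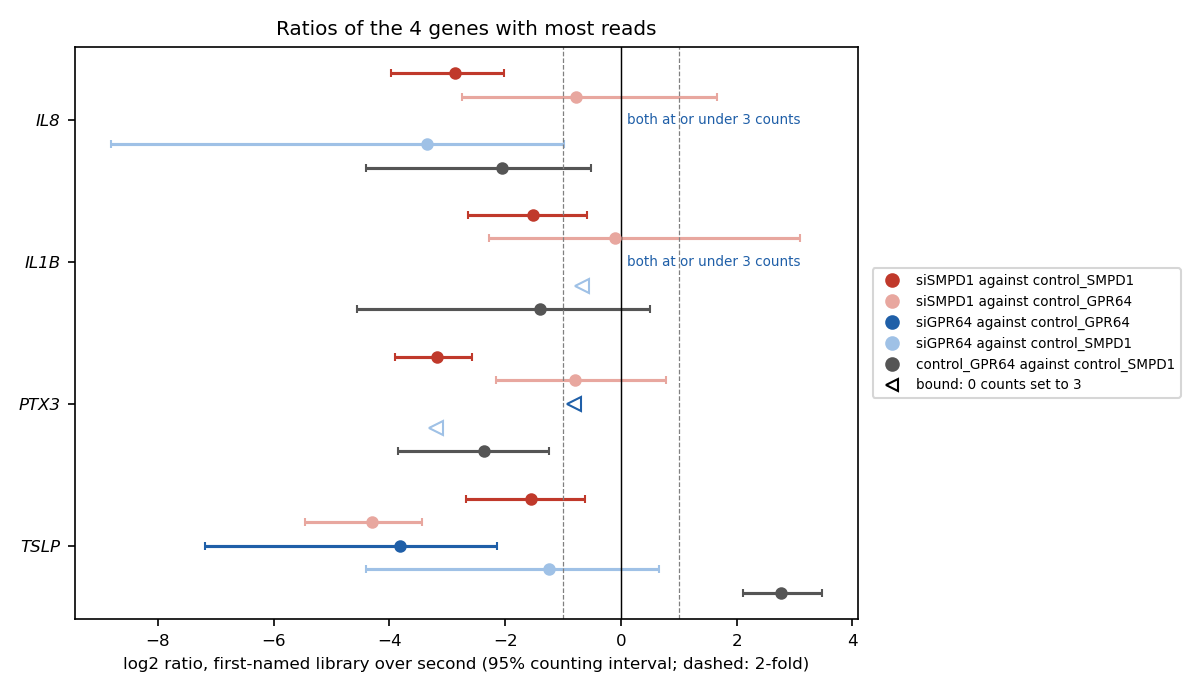
Log2 ratios with 95% counting intervals for IL8, IL1B, PTX3 and TSLP in 5 comparisons of 2 libraries, with open triangles for bounds where a library had 0 reads and dashed lines at 2-fold. IL8 and PTX3 lie near -2.87 and -3.17 against control_SMPD1 but near -0.77 and -0.79 against control_GPR64 in siSMPD1.

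The receptors for these ligands differed from the ligands in abundance (those other than IL6R and IL1RAP were named after their values were seen). CXCR2, CCR2 and CRLF2 had 0 reads in every library, and CXCR1 had 1 read in siGPR64 and 0 elsewhere. With reads that did not align uniquely left out, a 0 does not show that a transcript is absent. The shared chains were well covered. IL1RAP stood at 364 CPM in siSMPD1 and 288 CPM in control_SMPD1, and at 345 CPM in siGPR64 and 512 CPM in control_GPR64. LIFR stood at 160 CPM in siSMPD1 and 161 CPM in control_SMPD1, and at 115.6 CPM in siGPR64 and 101.1 CPM in control_GPR64. IL6ST stood at 76.8 CPM in siSMPD1 and 109.0 CPM in control_SMPD1, and at 83.0 CPM in siGPR64 and 67.5 CPM in control_GPR64. IL1R1, the signalling receptor of IL1B, had 0 reads in siSMPD1 and 11 in control_SMPD1, and 0 in both GPR64 libraries. Of 14 listed receptors 5 were measured in the SMPD1 pair, with a median log2 ratio of -0.01. IL6R, the ligand-binding chain for IL6, was the single one past the rule, 2.42-fold higher in siSMPD1 (1.73 to 3.49) at 115 reads against 48. Against control_GPR64 it was 5.72-fold higher in siSMPD1 (1.98 to 29.2), on 3 reads in that control. In the GPR64 pair none of 6 measured receptors was past the rule, with a median of 0.25.

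Other chemokines were mostly unread. None of 20 further CC chemokine genes reached 1 CPM on average in any pair. Of 14 further CXC and CX3C genes, 3 did in the SMPD1 pair, and 2 were lower in siSMPD1, as were 1.11% of measured genes. These were CXCL11, 5.03-fold lower (2.45 to 13.0), and CXCL10, 2.9-fold lower (1.75 to 5.16), both ligands of CXCR3 induced by interferon. Neither call held against control_GPR64, where CXCL10 had 20 reads in siSMPD1 and 1 in control_GPR64, a log2 ratio of 1.51 in the other direction, and CXCL11 had 8 reads in siSMPD1 and 0 in control_GPR64. CXCL16, a membrane-bound chemokine, had a log2 ratio of 0.60 in the SMPD1 pair. It had one of 0.62 in the GPR64 pair, where it was the single measured gene. In siSMPD1 against control_GPR64 CXCL16 was past the rule, 4.04-fold higher (2.25 to 8.26). Among 30 further cytokine genes, none of 10 measured was past the rule in siSMPD1, with a median log2 ratio of -0.04 (that of all measured genes was -0.0039). In siGPR64, 12 were measured and had a median of 0.45 (all measured genes, 0.014). IL33, an alarmin of the IL1 family, was 5.01-fold higher (1.62 to 30.8) on 15 reads in siGPR64 against 3 in control_GPR64, and CSF1, the macrophage growth factor, was 2.88-fold higher (1.13 to 9.52). TNFSF13B, the B cell survival factor BAFF, was 4.42-fold lower (3.21 to 6.3), at 17.2 CPM in siGPR64 and 76.7 CPM in control_GPR64. IL32 had 0 reads in siGPR64 and 6 in control_GPR64, at least 1.75-fold lower, and was named after its values were seen. Against control_SMPD1 none of IL33, CSF1 and TNFSF13B was past the rule in siGPR64, and IL33 and TNFSF13B pointed the other way, with log2 ratios of -0.78 and 0.17.

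TNFSF13B had a pattern like that of TSLP, with control_GPR64 above the other libraries: 10.3 CPM in siSMPD1, 15.3 CPM in control_SMPD1 and the levels above in the GPR64 pair. IL33 had the opposite one, at 15.2 CPM in siSMPD1, 10.1 CPM in control_SMPD1, 5.88 CPM in siGPR64 and 1.03 CPM in control_GPR64. The pentraxin NPTXR, a neuronal relative of PTX3, did not share its pattern in the SMPD1 pair, with 379 CPM in siSMPD1 and 398 CPM in control_SMPD1, a log2 ratio of -0.07. In the GPR64 pair NPTXR stood at 333 CPM in siGPR64 and 174 CPM in control_GPR64, a log2 ratio of 0.94 short of the rule.

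The regulators of these genes mostly differed by under 2-fold in siSMPD1 against control_SMPD1. Of all measured genes in this pair, 1.11% were lower and 2.49% higher by the rule. None of 17 NF-kB subunits, kinases and inhibitors was past the rule there, with a median log2 ratio of -0.06. The main activating subunit RELA stood at 102 CPM in siSMPD1 and 80.3 CPM in control_SMPD1, a log2 ratio of 0.35. Of 17 measured NF-kB target genes, TRAF1, a signalling adaptor, was the single one past the rule, 2.67-fold higher (1.97 to 3.7), and the median was -0.09. IL-1 signalling genes had a median of 0.10 with none of 12 past the rule. Among 14 measured C/EBP, AP-1, STAT3 and SOCS genes, FOS, an AP-1 subunit, was 2.42-fold lower (1.92 to 3.09), and the median was -0.03. None of 12 mRNA decay factors was past the rule, with a median of 0.04, and KHSRP, which binds AU-rich sequences, had a log2 ratio of 0.01. Against control_GPR64, TRAF1 was 3.34-fold higher and FOS 2.71-fold lower in siSMPD1. More genes at large were past the rule there, 8.02% lower and 10.5% higher, and the lists differed more too. Of 16 measured C/EBP, AP-1, STAT3 and SOCS genes, 9 were lower and 4 higher (median -1.07). Of 16 NF-kB targets 5 were higher and 1 lower (median 0.31), and 4 of 12 IL-1 signalling genes were higher (median 0.72). Of the 17 NF-kB subunits, kinases and inhibitors 1 was higher and 2 were lower (median -0.06). NFKB1 was 6.52-fold (5.2 to 8.25) and RELB 2.37-fold lower, and NFKBIZ was 2.23-fold higher. Of 12 decay factors 1 was higher (median -0.06), ZC3H12A, 3.25-fold (1.38 to 10.4) on 5 reads in control_GPR64.

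In siGPR64 the regulators differed from control_GPR64 in both directions, as did 5.18% (lower) and 6.56% (higher) of all measured genes. Of 17 NF-kB subunits, kinases and inhibitors, 4 were lower: NFKB2, the precursor of the non-canonical subunit p52, 2.58-fold (1.8 to 3.84), NFKB1, the precursor of p50, 2.1-fold (1.56 to 2.86), the deubiquitinase gene CYLD 2.13-fold (1.32 to 3.61), and RELB, named after its values were seen, 2.54-fold (1.2 to 6.34). Their list's median was -0.07. NFKB1 was at 25.1 CPM in siGPR64 and 52.8 CPM in control_GPR64, against 13.3 CPM in control_SMPD1. Of 16 measured NF-kB targets 4 were higher and none lower, with a median of 0.36, among them the gelatinase gene MMP9, 5.63-fold higher (1.53 to 63.1) on 12 reads against 2. With control_SMPD1 in its place the direction turned: none of 16 measured targets was higher and 3 were lower in siGPR64, with a median of -0.22, and MMP9 was 3.06-fold lower (1.73 to 6.03), at 4.7 CPM in siGPR64 and 14.5 CPM in control_SMPD1. The control_GPR64 library, at 0.685 CPM, was the lowest for MMP9. Of all measured genes, 5.25% were lower and 6.18% higher by the rule in siGPR64 against control_SMPD1. Of 17 C/EBP, AP-1, STAT3 and SOCS genes 4 were higher and none lower, with a median of -0.05. The cytokine signalling inhibitors SOCS1 and SOCS3 were 10.0-fold (2.23 to 632, on 13 reads against 1) and 4.02-fold higher (1.8 to 11.6), and FOSL1, an AP-1 subunit, was 3.61-fold higher (2.14 to 6.65). TAB2, an adaptor of IL1 receptor signalling, was 2.44-fold lower (1.99 to 3.02). It was the 1 gene past the rule of 10 measured IL-1 signalling genes, with a median of -0.03. None of 12 decay factors was past the rule, with a median of 0.10. Against control_SMPD1, SOCS1 was 3.42-fold and SOCS3 2.62-fold higher and RELB 2.07-fold lower in siGPR64, while FOSL1, TAB2, NFKB2, CYLD and NFKB1 were short of the rule, NFKB1 with a log2 ratio of 0.92 in the other direction. In that comparison 3 of 12 IL-1 signalling genes (MYD88, CASP1 and IRAK3) were lower and none higher (median -0.56). Of 17 NF-kB genes 2 were lower, RELB and NFKBIA, and none higher (median -0.06). Of 16 measured C/EBP, AP-1, STAT3 and SOCS genes 6 were higher and none lower (median 0.93).

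**Figure D5:**
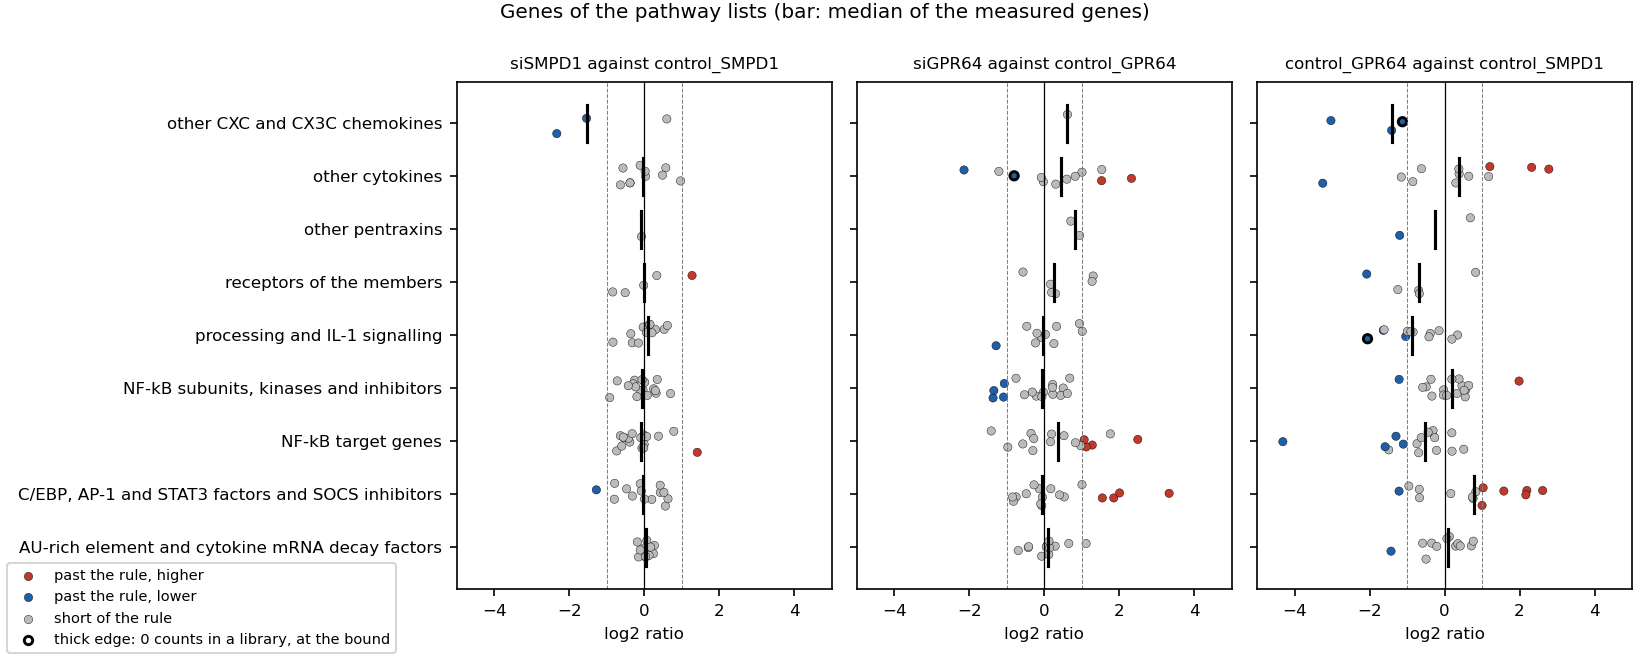
Log2 ratios of the measured genes of each pathway list in 3 comparisons, with the list's median as a bar and dashed lines at 2-fold. Genes with 0 reads in a library are drawn at their bound with a thick edge. In siSMPD1 against control_SMPD1 the 17 NF-kB genes lie inside the dashed lines, and 4 of them lie below in siGPR64 against control_GPR64.

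Near their ends the members' transcripts share AU-rich letters. TATTTAT occurred in the last 500 bases of the longest coding transcript (GENCODE release 29) of 7 of the 10 genes, and in 13.7% of 19416 genes with such a transcript of at least that length. At least 2 copies were found for 4 members, with 4 in IL1B, 3 in IL6, 3 in CXCL2 and 2 in LIF, and in 2.14% of all genes. IL8, CCL2 and TSLP had none in this window. Of the 4 members measured in the SMPD1 pair, IL1B had 4 copies, PTX3 had 1, and IL8 and TSLP had none. All 4 were lower in siSMPD1, so the copies could not be set against the direction, and a relation was not tested.

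By the smallest root mean square difference of centred log2 CPM over the 4 libraries, the genes nearest to IL8 among 12886 were MAB21L3 at 0.69, SLC25A24 and UTS2D at 0.71 each, and GBP2 and PCDHGA5 at 0.72 each. None was a member, but of the other members only TSLP and PTX3 were among these candidates. TSLP ranked 12094 and PTX3 12339 of 12886, with PTX3 at 0 reads in siGPR64. The remaining members were not ranked, so they could not have been named. Each of the nearest genes had most CPM in control_SMPD1, with 247 reads of MAB21L3 there against 121 in siSMPD1. The profile of IL8 rests on 1 and 3 reads in the GPR64 pair.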

How the data were processed

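Per the submitters' processing notes, reads were handled with bcl2fastq, TopHat2, SAMtools and HTSeq on hg19; the sources used here give no versions, annotation or strand setting. Raw counts per gene symbol were deposited, with no normalization by the authors. The 5 HTSeq summary lines, 36.5% to 44.8% of entries, were left out; entries not uniquely aligned made up 20.1% to 30.1%.

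Counts were scaled by TMM (edgeR 4.0.16, R 4.3.3) using genes that reached 1 CPM in any library. Log2 ratios used a prior of 0.5 count. Intervals (95%) are exact: Clopper-Pearson for how the reads of 2 libraries divide, or Poisson for 1 count. No molecular identifiers are named, so reads may be copies of 1 molecule, and both kinds cover counting error only. A count of 0 was set to 3 for bounds, which take the count of the other library as exact. The rule of size is given with the results and was tested on simulated counts. Named are all 10 members, up to 3 genes past the rule per list and comparison by interval bound (else the 1 with most CPM), the targets and the 5 genes nearest to IL8, of which some are left out here. The 10 members, the 10 pathway lists and 5 marker lists were chosen with earlier results of these data known. Alternatives were other scalings, priors, filters, thresholds, the other control, and 2 fits of the counts, by edgeR (quasi-likelihood) and DESeq2 1.42.0, with both controls as 1 group. Sequences are from RefSeq (GRCh38.p14) and GENCODE release 29.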

Additional observations from a re-analysis of the deposited data

How the results depend on the processing

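No paired analysis was possible because each group has 1 library and the labels give no replicate numbers. The counts of members past the rule, and of pathway genes past it, stayed within 1.5 times under DESeq2 size factors and total gene counts; those of members also under a prior of 2 counts, no filter on low counts and a 1.5-fold threshold. At a mean of at least 5 CPM, 1 member was lower in siSMPD1 (PTX3), 1 in siGPR64 (TSLP) and 1 in control_GPR64 against control_SMPD1 (PTX3). With the other control 1 was lower in siSMPD1 (TSLP), and 2 in siGPR64, there IL8 and PTX3 in place of PTX3 and TSLP. With a count of 0 set to 3, chosen after seeing the data, 1 was lower in siGPR64 (TSLP). No called member changed sign under these settings. Among pathway genes, which were set against the other control too, some called ones did, as given beside them. With both controls as 1 group (1 residual degree of freedom), edgeR's quasi-likelihood test called 0 of 13551 genes in siSMPD1 and in siGPR64 at an adjusted p under 0.05, with 178 and 305 at an unadjusted p under 0.05. DESeq2 called 1 and 0, and edgeR with at least 1 count in total 30 and 12 of 17237. The cause was not tested. In the GPR64 pair, 3 reads stand at 1.18 and 1.03 CPM, above the level of 6 members in control_SMPD1, so differences in these could not be seen there.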
